A study of Mus musculus with 6 samples.

Results

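Acta1, Actc1, Ankrd1, Ankrd2, Xirp1, Xirp2, Fhl1 and Fhl2 are genes that heart muscle uses, or switches on when it is stretched, overloaded or returned to a fetal pattern, leaving aside the natriuretic peptides. They were taken by symbol from the deposited count table, which held all 8 among 35976 genes. Each was compared between 3 sgRNA7 and 3 control heart libraries of wild-type (WT) mice. The sgRNA7 hearts carried an adeno-associated virus labelled AAV-MYL2-TadA8e-Sauri-U6-Camk2d sgRNA7: an adenine base editor, in which the deaminase TadA8e is joined to a Cas9 labelled Sauri, under the promoter of the ventricular myosin light chain gene MYL2, and a guide RNA transcribed from a U6 promoter. The control hearts received no treatment, so the virus, the editor and the edit all separate the groups together. The guide was aimed at the donor splice site of intron 7 of Camk2d, the main calcium/calmodulin-dependent kinase gene of heart muscle. The labels give no age, sex, dose, interval or region of the heart, and nothing in them says that each library came from its own animal, so p-values measure the spread between these libraries.

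Striated muscle builds its thin filaments from a pair of sarcomeric actins: Actc1 encodes cardiac alpha-actin, the form of the adult heart, and Acta1 encodes skeletal alpha-actin, which the rodent heart makes around birth and again under pressure overload. Ankrd1 and Ankrd2 encode muscle ankyrin repeat proteins that bind the N2A region of titin and also enter the nucleus. Xirp1 and Xirp2 encode Xin actin-binding repeat proteins of the intercalated disc and other sites where filaments meet the membrane, and Fhl1 and Fhl2 encode proteins of LIM domains that sit on titin and the Z-disc and bind signalling proteins.

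Library totals ran from 17062412 to 23097998 counts. The targeted gene was lower in the sgRNA7 hearts: Camk2d had 138, 130 and 164 CPM (read counts scaled to library size, with a sum near 1000000 per library, and by edgeR's TMM factors) in sgRNA7 1, 2 and 3, against 226, 220 and 224 CPM in control 1, 2 and 3. The controls differed from one another in atrial RNA. The 5 atrial markers Myl7, Nppa, Myl4, Sln and Bmp10 summed to 1780, 1164 and 2679 CPM in sgRNA7 1, 2 and 3, against 42.2, 1881 and 20.2 CPM in control 1, 2 and 3. Results below were therefore also fitted with Myl7 as a covariate and with controls 1 and 3 left out, which leaves control 2 as the single control. Myl7 itself had 542, 371 and 914 CPM in sgRNA7 1, 2 and 3, against 6.88, 332 and 0.209 CPM in control 1, 2 and 3. It was thus higher in every sgRNA7 library, so the covariate runs partly with the group and cannot be fully separated from it. With it the SE of each tested member was larger (for Acta1, 0.91 against 0.52). Markers of ventricular muscle (Myl2, Myh6, Tnnt2, Tnni3, Ryr2 and Mybpc3) summed to between 48788 and 51744 CPM in sgRNA7 hearts, against 57638.5 to 59838 CPM in control hearts. In bulk tissue, fewer cells of a type and less RNA per cell cannot be told apart.

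Fhl1 and Xirp2 rose and Fhl2 fell in the sgRNA7 hearts. These 3 of 7 tested members passed edgeR's quasi-likelihood test (adjusted p under 0.05), and Ankrd2 had too few reads to be tested. That test called 9.66% of all 14879 tested genes, 4.93% as higher and 4.74% as lower. Acta1 had the largest estimated change of the members and Ankrd1 the next, but neither passed edgeR's test. Both passed DESeq2's Wald test on the same libraries. The members did not move one way: 4 estimates were above 0 and 3 below it. Groups did not overlap for 6 of 7 tested members, Xirp1 being the other, against 29.3% of all tested genes.

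**Figure D1:**
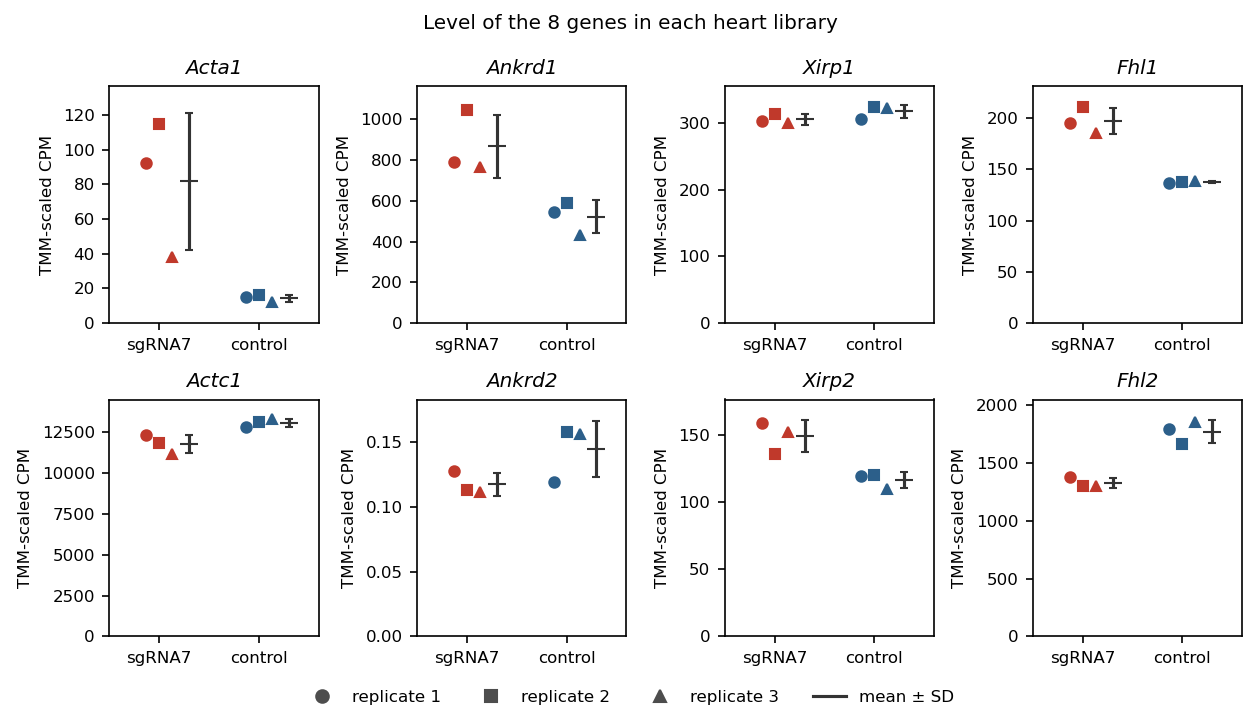
TMM-scaled CPM (y axis, from 0, on a scale of its own in each panel) of the 8 genes in the 3 sgRNA7 and 3 control libraries; each symbol is 1 library and each bar a mean ± SD. Acta1, Ankrd1, Fhl1 and Xirp2 lie higher in every sgRNA7 library, Fhl2 and Actc1 lower, and Xirp1 and Ankrd2 overlap.

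The sarcomeric actins differed widely in abundance and leaned in opposite directions. Acta1 had 92.2, 115 and 38.1 CPM in sgRNA7 1, 2 and 3, against 14.9, 15.9 and 12.1 CPM in control 1, 2 and 3. Every sgRNA7 library exceeded every control, but sgRNA7 3 held less than the other two sgRNA7 libraries. The coefficient of variation of Acta1 was 48.3% over the sgRNA7 libraries and 13.8% over the controls. The fitted change was 5.74-fold (95% interval 2.16 to 15.3; log2 2.52, SE 0.52), and edgeR's adjusted p was 0.0656. By exact permutation, two-sided, p was 0.1, as small as 3 libraries against 3 can give. Among 14879 tested genes this was the log2 estimate of rank 29 from the top. Leaving out sgRNA7 3 gave a log2 change of 2.86 with an adjusted p of 1.4e-05, and DESeq2's Wald test on all 6 libraries gave 6.69e-06. Acta1 passed only in these 2 of 15 alternatives. With 1 library left out, edgeR's adjusted p lay between 1.4e-05 and 0.237. It was 0.111 with limma voom and, in edgeR's test with Myl7 as a covariate, 0.439.

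Actc1, the cardiac isoform, had 12303, 11848 and 11183 CPM in sgRNA7 1, 2 and 3, against 12781, 13131 and 13269 CPM in control 1, 2 and 3. Each sgRNA7 value lay below each control value, by a small margin. The level was 0.902 times the control level (95% interval 0.844 to 0.964; log2 -0.15, SE 0.04), with an adjusted p of 0.0502, which falls just outside the threshold. It passed in 6 of 15 alternatives, among them the fits without sgRNA7 1 (adjusted p 0.0155) and without sgRNA7 2 (0.0471), and over all alternatives the adjusted p ran from 0.0105 to 0.51.

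Per exon length, in FPKM (CPM per kilobase of the deposited exon length), Acta1 stood at 52 ± 25.1 in sgRNA7 hearts and 9.08 ± 1.26 in control hearts, and Actc1 at 8061 ± 385 and 8939 ± 172 (SD, n = 3 each). Acta1 was thus 0.692%, 0.894% and 0.316% of the summed FPKM of the pair in sgRNA7 1, 2 and 3, against 0.108%, 0.112% and 0.0844% in control 1, 2 and 3. The mean share was 0.634 ± 0.293% in sgRNA7 hearts and 0.102 ± 0.015% in control hearts, a difference of 0.532 percentage points (SD, n = 3 each; exact permutation p = 0.1). Acta1 remained a minor isoform in every library. The summed FPKM of the pair was 8114 ± 405 in sgRNA7 hearts and 8948 ± 171 in control hearts (SD, n = 3 each; exact permutation p = 0.1).

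**Figure D2:**
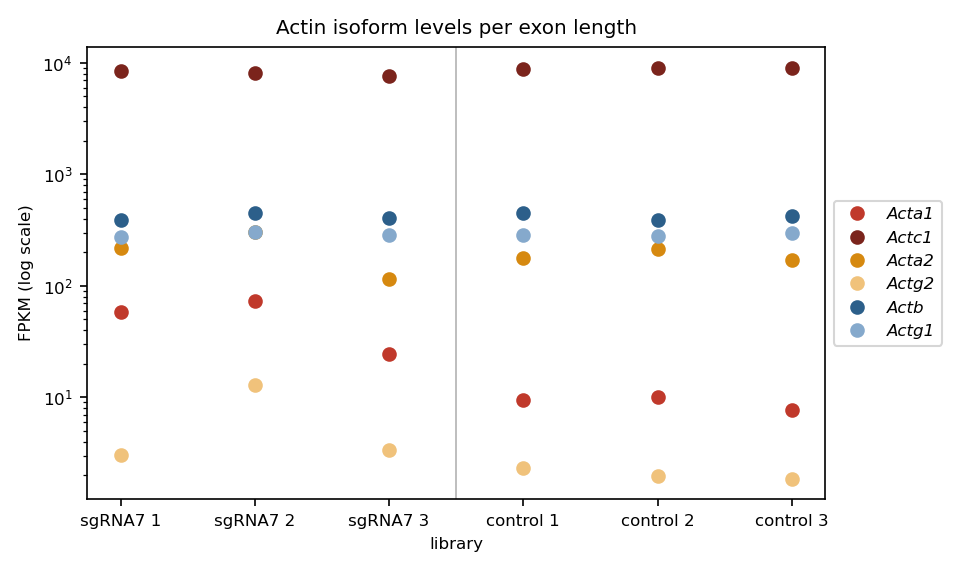
FPKM (y axis, log scale) of the 6 actin isoform genes in each library (x axis, sgRNA7 left of control). Acta1 stands at 24.2 to 73.1 FPKM in sgRNA7 libraries and 7.68 to 10.1 in controls, while Actc1 stays between 7654 and 9082 FPKM.

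Of the remaining 4 actin genes, 0 passed edgeR's test, 0 had an unadjusted p under 0.05, and 0 passed DESeq2's Wald test or limma voom; their median log2 change was 0.09. Without sgRNA7 2, 1 of them passed. The cytoplasmic actins Actb and Actg1 had log2 changes of -0.03 and 0.00. Acta2, the smooth muscle alpha-actin, had 617, 856 and 325 CPM in sgRNA7 1, 2 and 3, against 502, 604 and 482 CPM in control 1, 2 and 3. Its levels overlapped between groups, and within the sgRNA7 libraries it had the order of Acta1, highest in sgRNA7 2 and lowest in sgRNA7 3. Actg2, the enteric smooth muscle actin, had 4.01, 16.9 and 4.41 CPM in sgRNA7 1, 2 and 3, against 3.05, 2.58 and 2.45 CPM in control 1, 2 and 3 (adjusted p 0.303). These actins and the markers below that were not past the threshold were chosen for mention after their values were seen.

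The coding sequences of Acta1 and Actc1 in GENCODE M21 are of equal length, 1131 bases without the stop codon, and 976 of these bases (86.3%) are identical. Of the windows of 50 bases along the Acta1 transcript, 2.22% also occur in a transcript of another gene, in cytoplasmic actin genes, an actin pseudogene or predicted genes and none in Actc1. No window of 100 bases of any member does. Windows were compared in the direction of the transcripts only, and the opposite strand was not searched. How reads that match several places were counted is not given in the sources used here, nor is the read length. In mm10 coordinates of the deposited table, Acta1 lies on chromosome 8 from 123891758 to 123894775 and Actc1 on chromosome 2 from 114047282 to 114052875, both on the minus strand. Neither shares an exon base with another gene of the table.

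The actin promoters are shown because both genes are classical targets of serum response factor (SRF), which binds the CArG box, and the pair leaned in opposite directions. The windows are the 250 bases before the RefSeq start (GRCm38.p6), chr8:123894776-123895025 for Acta1 and chr2:114052876-114053125 for Actc1, each read 5′ to 3′ on the minus strand. The letters searched for, on either strand, were the CArG box, the MEF2 site, M-CAT (CATTCC), which TEAD factors bind, a TATA box and a GATA core. Their matches are printed in capitals.
Acta1: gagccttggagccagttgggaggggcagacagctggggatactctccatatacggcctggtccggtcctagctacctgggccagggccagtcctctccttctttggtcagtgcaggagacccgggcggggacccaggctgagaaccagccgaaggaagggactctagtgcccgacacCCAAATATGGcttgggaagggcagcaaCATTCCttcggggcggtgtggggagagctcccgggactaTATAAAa
Actc1: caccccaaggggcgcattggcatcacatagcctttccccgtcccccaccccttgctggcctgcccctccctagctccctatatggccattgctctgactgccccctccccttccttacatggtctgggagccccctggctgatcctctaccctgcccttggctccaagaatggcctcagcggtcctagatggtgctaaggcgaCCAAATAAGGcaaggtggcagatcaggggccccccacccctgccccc
In Acta1 the capitals are a CArG box from -73 to -64, an M-CAT from -46 to -41 and a TATA box from -7 to -2, counted from the RefSeq start. The TATA box was searched as TATAAA. In Actc1 they are a CArG box from -47 to -38. In the Acta1 window 130 bases also lie in an exon of the predicted gene Gm29773. A CArG box occurs in 1.47% of 32851 RefSeq promoter windows of this length, an M-CAT in 12.6%, a TATA box in 12.4%, a GATA core in 9.99% and a MEF2 site in 2.92%. RefSeq promoters were at hand for 7 of the 8 members, 9 windows in all, and 5 of these windows, of 4 genes, hold a CArG box. A match describes the letters and is not a measurement of binding.

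Ankrd1, which encodes cardiac ankyrin repeat protein, was the third most abundant member per length. It had 790, 1047 and 765 CPM in sgRNA7 1, 2 and 3, against 545, 588 and 431 CPM in control 1, 2 and 3. The groups did not overlap, with sgRNA7 2 and control 2 the highest of their groups. The fitted change was 1.66-fold (95% interval 1.19 to 2.32; log2 0.73, SE 0.18), and edgeR's adjusted p was 0.0838. The exact permutation p was 0.1. Ankrd1 passed in 2 of 15 alternatives, 1 of them DESeq2's Wald test (adjusted p 0.00487). The alternatives together spanned 1.46e-04 to 0.511. With Myl7 as a covariate the log2 change was 0.53.

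Ankrd1 lies on chromosome 19 from 36111965 to 36119844 on the minus strand. Its promoter window, chr19:36119845-36120094, is shown because it holds M-CAT letters, as that of Acta1 does, and no CArG box.
Ankrd1: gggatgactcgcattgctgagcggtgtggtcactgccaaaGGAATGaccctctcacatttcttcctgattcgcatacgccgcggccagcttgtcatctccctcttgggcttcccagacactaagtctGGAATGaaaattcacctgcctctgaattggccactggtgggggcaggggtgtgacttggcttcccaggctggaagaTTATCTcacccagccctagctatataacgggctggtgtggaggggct
The capitals are M-CAT matches from -210 to -205 and from -123 to -118 and a GATA core (AGATAA) from -47 to -42, all on the opposite strand of the gene and so read here as their reverse complement.

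Ankrd2, the relative found mainly in slow skeletal muscle, was close to undetected. It had 3, 2 and 2 counts in sgRNA7 1, 2 and 3, against 2, 3 and 3 counts in control 1, 2 and 3. Summed over libraries and scaled, the ratio of sgRNA7 to control was 0.813, with a 95% interval of 0.251 to 2.57 that covers counting error only. A difference inside that interval was not detectable at this depth. The third gene of the family, Ankrd23, rose, to 201 ± 6.54 CPM in sgRNA7 hearts against 171 ± 1.57 CPM in control hearts (SD, n = 3 each; log2 0.23, SE 0.05; adjusted p 0.011). Its adjusted p was 0.0728 without control 3 and 0.176 with Myl7 as a covariate.

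The Xin repeat genes differed from one another. Xirp2, whose protein is also called myomaxin, had 159, 136 and 152 CPM in sgRNA7 1, 2 and 3, against 120, 121 and 110 CPM in control 1, 2 and 3. It rose 1.28-fold (95% interval 1.16 to 1.41; log2 0.35, SE 0.06), with an adjusted p of 0.00433. Its call held without any 1 library (adjusted p up to 0.044) but not with Myl7 as a covariate (log2 0.27, adjusted p 0.255) or with controls 1 and 3 left out (log2 0.31, adjusted p 0.211). Xirp1, which encodes Xin itself, had 302, 314 and 299 CPM in sgRNA7 1, 2 and 3, against 306, 324 and 322 CPM in control 1, 2 and 3. The groups overlapped, and the level was 0.962 times that of the controls (95% interval 0.89 to 1.04; adjusted p 0.559). The ratio of Xirp1 to Xirp2 in FPKM was 4.22 ± 0.446 in sgRNA7 hearts and 5.59 ± 0.403 in control hearts (SD, n = 3 each; exact permutation p = 0.1), and its values did not overlap.

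Xirp1 lies on chromosome 9 from 120013755 to 120023598 and Xirp2 on chromosome 2 from 67446000 to 67526620. Of the exon bases of Xirp2, 1.4% are shared with the predicted gene Gm13601, which lies on the opposite strand. The promoter window of Xirp2 holds a MEF2 site from -74 to -65 and none of the other motifs searched.

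The LIM genes moved in opposite directions, and both passed. Fhl1, which is known to bind titin N2B and to rise in hypertrophied hearts, had 196, 211 and 185 CPM in sgRNA7 1, 2 and 3, against 137, 138 and 139 CPM in control 1, 2 and 3. The controls agreed to a coefficient of variation of 0.716%, and every sgRNA7 library lay above them. Fhl1 rose 1.43-fold (95% interval 1.32 to 1.56; log2 0.52, SE 0.06; adjusted p 1.92e-04), and the adjusted p lay between 6.26e-14 and 0.0269 over the alternatives, which include the Myl7 covariate (0.0133) and controls 1 and 3 left out (0.0269).

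Fhl2, which in mice holds back hypertrophic signalling, had 1375, 1297 and 1303 CPM in sgRNA7 1, 2 and 3, against 1793, 1661 and 1853 CPM in control 1, 2 and 3. It fell to 0.749 times the control level (95% interval 0.692 to 0.81; log2 -0.42, SE 0.05; adjusted p 4.76e-04). The call held without any 1 library (adjusted p up to 0.00994). With Myl7 as a covariate it stood at -0.32 (log2) with an adjusted p of 0.0614, and with controls 1 and 3 left out -0.32 and 0.0851. The ratio of Fhl2 to Fhl1 in FPKM was 14.4, 12.6 and 14.4 in sgRNA7 1, 2 and 3, against 26.9, 24.7 and 27.4 in control 1, 2 and 3 (exact permutation p = 0.1). The relatives Fhl3 and Fhl4 had log2 changes of 0.02 and 0.04, and neither passed.

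Fhl1 lies on chromosome X from 56731720 to 56793346 on the plus strand and Fhl2 on chromosome 1 from 43123071 to 43198299 on the minus strand, and neither shares exon bases with another gene. A promoter window of each is shown because both hold a CArG box while the genes moved in opposite directions. They are chrX:56779433-56779682 and chr1:43163962-43164211, both inside the gene, before an internal start and outside the deposited exons.
Fhl1: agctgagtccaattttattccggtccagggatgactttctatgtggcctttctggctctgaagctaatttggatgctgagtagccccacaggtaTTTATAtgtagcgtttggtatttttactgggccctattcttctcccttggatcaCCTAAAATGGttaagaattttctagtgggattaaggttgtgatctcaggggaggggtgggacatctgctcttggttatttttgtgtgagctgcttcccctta
Fhl2: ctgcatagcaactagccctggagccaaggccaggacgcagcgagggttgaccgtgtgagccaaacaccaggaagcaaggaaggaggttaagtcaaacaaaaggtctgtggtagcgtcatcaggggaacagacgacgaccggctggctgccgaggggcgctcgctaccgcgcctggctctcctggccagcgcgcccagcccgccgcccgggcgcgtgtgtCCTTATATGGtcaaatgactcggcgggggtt
The CArG box runs from -102 to -93 in Fhl1 and from -31 to -22 in Fhl2. The other capitals of Fhl1, from -156 to -151, are a TATA box on the opposite strand. Each gene has a second RefSeq window, not printed. That of Fhl1 (chrX:56786277-56786526) holds none of the motifs searched. That of Fhl2 (chr1:43196762-43197011) holds a CArG box from -96 to -87, a GATA core from -62 to -57, and a MEF2 site from -31 to -22 that overlaps a TATA box from -28 to -23.

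**Figure D3:**
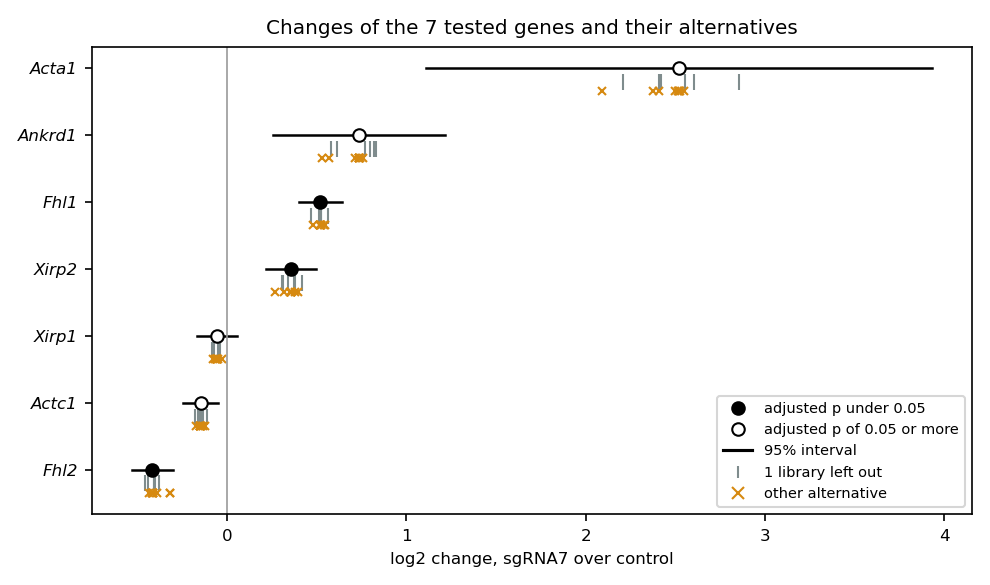
log2 change of sgRNA7 over control (x axis) for the 7 tested members; circles are the estimates, filled where the adjusted p is under 0.05, lines are 95% intervals, ticks leave out 1 library and crosses are other alternatives. The estimates of Acta1, Ankrd1, Fhl1 and Xirp2 lie above 0 and those of Fhl2, Actc1 and Xirp1 below it in every setting. The interval of Xirp1 crosses 0, and Acta1 has the widest interval, from 1.11 to 3.93.

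In control hearts the order per length was Actc1 (8939 FPKM), Fhl2 (1040 ± 57.7), Ankrd1 (295 ± 46.1), Xirp1 (54.3 ± 1.75), Fhl1 (39.4 ± 0.282), Xirp2 (9.73 ± 0.509), Acta1 (9.08 ± 1.26) and Ankrd2 (0.102 ± 0.0153; SD, n = 3). Xirp2 and Acta1 did not differ beyond their spread there. In sgRNA7 hearts Fhl2 averaged 778 ± 25.6 FPKM and Ankrd1 491 ± 88.5 FPKM. Fhl1 (56.5 ± 3.67), Xirp1 (52.2 ± 1.34) and Acta1 (52 ± 25.1) lay within their spread of one another in those hearts, above Xirp2 (12.4 ± 0.98; SD, n = 3). 

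Across the 6 libraries, the gene whose log2 CPM was most like that of Ankrd1 was Ctgf (Pearson r = 0.997), a matrix-associated growth factor gene, at 79.7 ± 8.06 CPM in sgRNA7 hearts and 56.5 ± 6.09 CPM in control hearts (SD, n = 3 each). The gene most like Fhl1 was Ankrd23 (r = 0.995). For the other tested members it was Cds1 for Acta1 (0.997), Mrps22 for Actc1 (0.995), Cog7 for Xirp1 (0.988), Rbl1 for Xirp2 (0.997) and Adamts9 for Fhl2 (0.998). Each was the highest of the values for the tested genes, leaving out those with predicted (Gm), Rik, pseudogene (-ps) or identifier-only symbols. The values come from 6 libraries that fall into 2 groups and are a description. Cds1 was low, at 2.3 ± 0.306 CPM in sgRNA7 hearts and 1.53 ± 0.021 CPM in control hearts (SD, n = 3 each), and a correlation does not compare sizes of change.

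Of 18 tested genes on a list of load or hypertrophy responsive genes and targets of the Hippo effector YAP, 7 rose and 0 fell, with a median log2 change of 0.25; over all tested genes 4.93% rose and 4.74% fell, with a median of 0.00. Tnni1, the fetal slow troponin I, rose to 437 CPM in sgRNA7 hearts, against 265 CPM in control hearts (log2 0.72, SE 0.09; adjusted p 0.00155). Amotl2, a YAP target that binds YAP, rose by a log2 of 0.33 (adjusted p 0.00608), and Ctgf by 0.50 (adjusted p 0.00645). Spp1, which encodes osteopontin, rose from a low base, with 1.28, 0.905 and 1.4 CPM in sgRNA7 1, 2 and 3, against 0.478, 0.263 and 0.104 CPM in control 1, 2 and 3. Myh7, the slow myosin of the fetal program, had 198 CPM in sgRNA7 hearts and 174 CPM in control hearts and did not pass (adjusted p 0.157), nor did Rcan1, a calcineurin target (log2 -0.07, adjusted p 0.498). The list's calls were 4 without sgRNA7 3, 3 without control 3, 1 with Myl7 as a covariate and 1 with controls 1 and 3 left out. Amotl2 lost its call without control 3 (adjusted p 0.0582), and Amotl2, Ctgf and Spp1 lost theirs with Myl7 as a covariate (0.321, 0.228 and 0.299).

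Of 22 tested genes for SRF, its coactivators, the Hippo pathway, MEF2 and their partners, 2 rose and 1 fell, with a median log2 change of -0.03, a count near the 9.66% called over all tested genes. Tead2 rose to 33.3 CPM in sgRNA7 hearts, against 25.5 CPM in control hearts (log2 0.38, SE 0.07; adjusted p 0.00383). Mkl2, a myocardin-related coactivator of SRF, rose by a log2 of 0.29 (adjusted p 0.0175). Myocd, which encodes myocardin, fell to 155, 113 and 153 CPM in sgRNA7 1, 2 and 3, against 199, 202 and 237 CPM in control 1, 2 and 3 (log2 -0.60, SE 0.14; adjusted p 0.0485). That call was lost without any 1 of sgRNA7 1, sgRNA7 3 or the 3 controls (adjusted p 0.06 to 0.106). The call of Mkl2 was lost without sgRNA7 3, control 1 or control 3 (0.0776, 0.0673 and 0.101), and with Myl7 as a covariate 0 genes of this list passed. Srf, Yap1, Wwtr1, Tead1 and Gata4 had log2 changes between -0.09 and -0.03, and none passed. Larger estimates that did not pass were those of Tead3 (log2 0.23, adjusted p 0.117), Nkx2-5 (-0.16, 0.121) and Mef2d (-0.12, 0.22). Of the genes not called, Nkx2-5 and Mef2d were lower and Vgll3 higher in every sgRNA7 library.

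Of 21 tested partners of the members at titin, the Z-disc and the costamere, 0 rose and 3 fell, with a median log2 change of -0.08, beside 9.66% of all tested genes called in either direction and 4.74% called as lower. The 3 were Myoz2, a Z-disc protein that binds calcineurin (435 CPM in sgRNA7 hearts, 589 CPM in control hearts; adjusted p 5.97e-04), Tcap, the cap of titin (236 and 316 CPM in the same order; adjusted p 0.00132), and the actin-binding Nexn (405 and 491 CPM; adjusted p 0.0171). Flnc, the filamin that binds Xin proteins, had 405, 397 and 406 CPM in sgRNA7 1, 2 and 3, against 362, 364 and 367 CPM in control 1, 2 and 3, and did not pass (log2 0.15, adjusted p 0.0767). Csrp3, a LIM protein of the Z-disc, did not pass either (log2 -0.14, adjusted p 0.0983). Nexn lost its call without sgRNA7 3, control 1 or control 3 (0.0772, 0.0756 and 0.0825). With DESeq2's Wald test 5 genes of this list passed, with limma voom 6, and with Myl7 as a covariate 0.

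**Figure D4:**
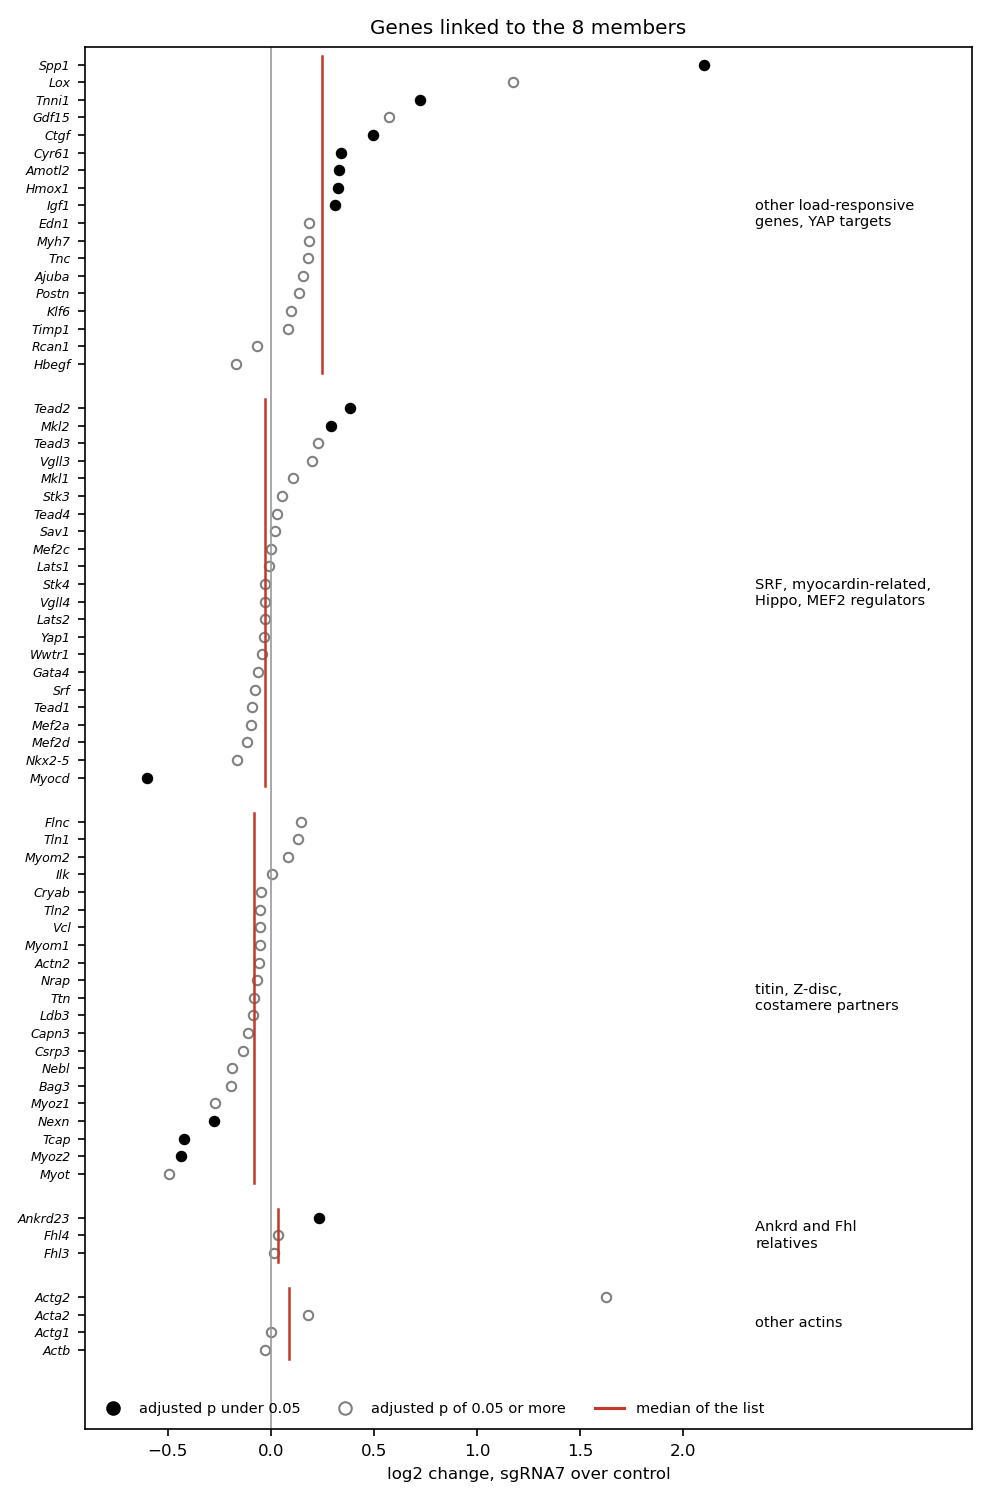
log2 change of sgRNA7 over control (x axis) for every tested gene of the 5 lists linked to the members, 1 gene a row; filled circles have an adjusted p under 0.05 and red lines are list medians. Calls on the load list lie right of 0 and those on the titin and Z-disc list left of it.

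Markers of other muscle were read beside Acta1, which skeletal muscle also makes. Of 9 skeletal muscle markers, 4 were tested, 1 rose and 0 fell. For this and the marker counts below, 4.93% of all tested genes were called as higher and 4.74% as lower. Of those not tested, Myh1, Myh2, Myh4 and Pvalb were at most 0.369 CPM in any library and Actn3 at most 0.679 CPM. The rise was Mybpc2 (adjusted p 0.00172; 0.0944 with Myl7 as a covariate and 0.146 with controls 1 and 3 left out), with 25.0, 25.2 and 18.8 CPM in sgRNA7 1, 2 and 3, against 13.8, 14.8 and 13.4 CPM in control 1, 2 and 3, and the list summed to 23.3 to 29.6 CPM in sgRNA7 hearts and 19.4 to 21.4 CPM in control hearts. The fast troponin Tnni2 ran the other way, at 1.95 CPM in sgRNA7 hearts and 3.06 CPM in control hearts (adjusted p 0.0652). Mylpf was also lower in every sgRNA7 library (0.761 CPM in sgRNA7 hearts, 1.06 CPM in control hearts, adjusted p 0.31), and Tnnt3 overlapped between groups.

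Of the 5 smooth muscle markers 4 were tested and 0 passed edgeR's test. The 5 summed to 742 to 1442 CPM in sgRNA7 hearts and 951 to 1065 CPM in control hearts. In that test 1 of them (Smtn) had an unadjusted p under 0.05, and it was lower in every sgRNA7 library. Smtn had 345, 398 and 360 CPM in sgRNA7 1, 2 and 3, against 411, 400 and 416 CPM in control 1, 2 and 3. Myh11 had 70.1, 162 and 52.7 CPM in sgRNA7 1, 2 and 3, against 54.8, 58.8 and 51.2 CPM in control 1, 2 and 3. Its groups overlapped (log2 0.79, adjusted p 0.437 in edgeR's test). Cnn1 had 5.76, 25.4 and 4.08 CPM in sgRNA7 1, 2 and 3, against 1.79, 1.9 and 2.04 CPM in control 1, 2 and 3, while Tagln was at most 0.226 CPM in any library. The strand setting and the treatment of reads that match several places are not given. Whether the way reads were counted lowered Tagln was not tested. Of 5 mesothelial markers, which line the heart's surface, 3 rose and 1 fell. Msln had 11.3, 11.8 and 6.53 CPM in sgRNA7 1, 2 and 3, against 2.63, 2.79 and 2.45 CPM in control 1, 2 and 3. Upk1b (adjusted p 0.00154) and Lrrn4 (adjusted p 0.0369) also rose. Lrrn4 lost its call without sgRNA7 1, sgRNA7 2, control 1 or control 3 (0.0671 to 0.182). With Myl7 as a covariate and with controls 1 and 3 left out, adjusted p was 0.0579 and 0.154 for Msln, 0.0936 and 0.116 for Upk1b, and 0.419 and 0.502 for Lrrn4. Wt1 fell (adjusted p 0.0259; not past it without sgRNA7 1, sgRNA7 3, control 1 or control 3, at 0.0644 to 0.139), and the list summed to 27.3 to 47 CPM in sgRNA7 hearts, against 25.9 to 26.2 CPM in control hearts. Within the sgRNA7 libraries, Acta1, Ankrd1, Acta2, Myh11, Cnn1 and Msln were all highest in sgRNA7 2 and lowest in sgRNA7 3. Myl7 was highest in sgRNA7 3 (914 CPM) and lowest in sgRNA7 2 (371 CPM). The part of smooth muscle and mesothelial tissue in the levels of Acta1 and Ankrd1 was not tested. Of 6 ventricular markers, 5 were lower in every sgRNA7 library than in any control, as were 14.7% of all tested genes. Called as lower were 3 of the 6 (Tnnt2, Tnni3 and Myh6, with log2 changes of -0.36, -0.27 and -0.21), next to the log2 change of -0.15 of Actc1. Tnni3 and Myh6 lost their calls without control 3 (adjusted p 0.0649 and 0.0933). All 3 lost them with Myl7 as a covariate (0.127 for Tnnt2, 0.346 for Tnni3 and 0.278 for Myh6) and with controls 1 and 3 left out (0.166, 0.44 and 0.233). Of 3 markers of valve or conduction tissue, 0 rose and 1 fell, and the list summed to 45.9 to 63.7 CPM in sgRNA7 hearts and 44.3 to 58.1 CPM in control hearts. The fall was Cntn2 (5.56 CPM in sgRNA7 hearts, 16.7 CPM in control hearts). Gja5 was higher in every sgRNA7 library (40.8 CPM in sgRNA7 hearts, 26.0 CPM in control hearts) but did not pass (adjusted p 0.205), and Hcn4 overlapped between groups. Of 4 endothelial, 5 fibroblast and 3 blood markers, 0 passed edgeR's test and 0 had an unadjusted p under 0.05, with median log2 changes of -0.02, 0.08 and -0.16. Summed fibroblast markers ran from 3571 to 5081 CPM in sgRNA7 hearts, highest in sgRNA7 2, against 3026 to 3670 CPM in control hearts.

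**Figure D5:**
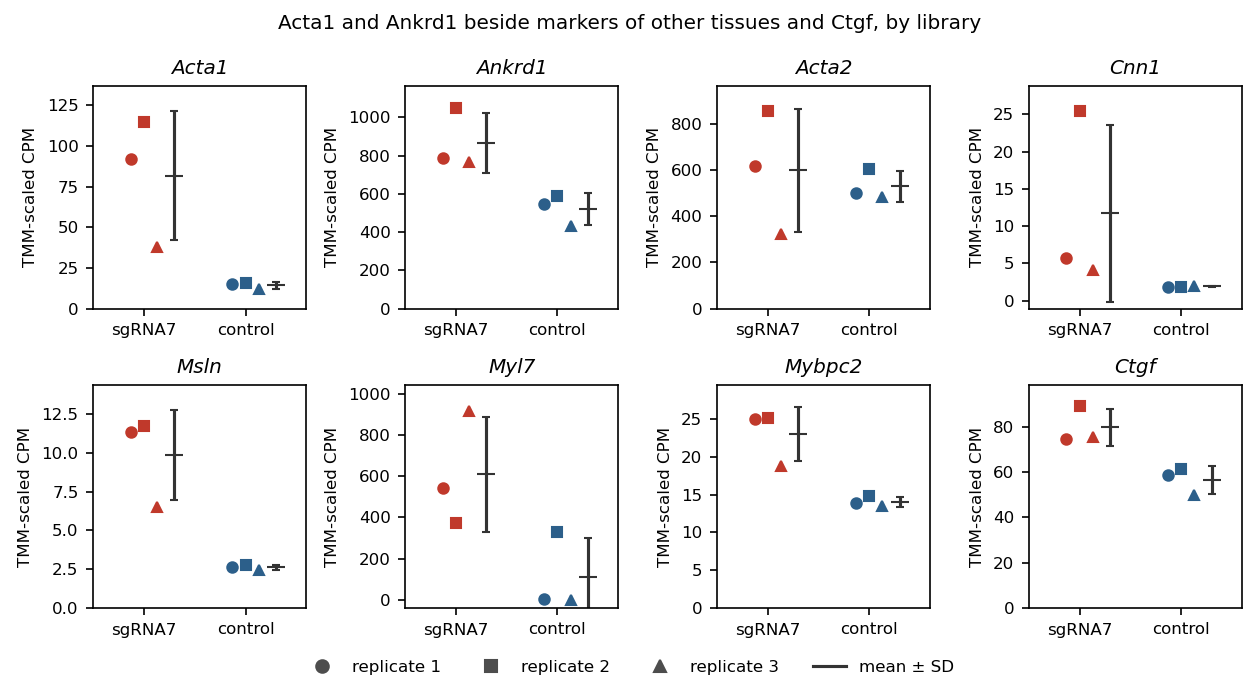
TMM-scaled CPM (y axis, own scale per panel) of Acta1 and Ankrd1 beside 2 smooth muscle genes (Acta2 and Cnn1), a mesothelial marker (Msln), an atrial marker (Myl7), a skeletal muscle marker (Mybpc2) and Ctgf; each symbol is 1 library and each bar a mean ± SD. Within the sgRNA7 group Acta1, Ankrd1, Acta2, Cnn1, Msln and Ctgf peak in replicate 2 and Myl7 in replicate 3. The lower error bar of Myl7 in controls is clipped at the axis.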

How the data were processed

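RNA of 6 libraries of mouse heart, 3 sgRNA7 and 3 control, was analysed from 1 deposited table of raw read counts per gene. Per the submitters' processing notes, the authors used FastQC, cutadapt, STAR and featureCounts with the build mm10; the sources used here give no versions, strand setting or treatment of reads that match several places. Each library had 2 count columns, named after the mates of a pair, in which 0 genes differed, and the first was used. The column of exon length, of unit bases, is also the authors' deposited value. The chi-square per degree of freedom between libraries of a group was 3.95 to 14.4, so none was a copy of another.

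Genes were kept by edgeR's filterByExpr, libraries scaled by TMM (factors 0.971 to 1.04), and the groups set against each other in R 4.3.3 by the robust quasi-likelihood test of edgeR 4.0.16, without covariates; adjusted p-values are Benjamini-Hochberg over 14879 genes, with a threshold of 0.05. Fold changes are sgRNA7 over control, intervals are 95%. FPKM are TMM-scaled CPM per kilobase. The exact permutation tests, two-sided, ran over 20 arrangements of the libraries, on log2(CPM + 0.1) for a gene. Log2 CPM for likeness had a prior count of 2. The steps were tested on simulated counts.

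The members, lists, markers and tests were chosen with earlier results of these data known. The lists and the rule for named genes are those of the text: the members, up to 4 called genes of each list, up to 3 of each marker list, Myl7, Nppa, Myl4, Camk2d and the gene most like each member. List genes named without passing the threshold, such as Myh7, Flnc and Srf, fall outside that rule and were chosen with their values known. Sequences are RefSeq's (GRCm38.p6) and GENCODE M21's; protein sequences were not used here. Alternatives were a Wald test (DESeq2 1.42.0), voom with quality weights (limma 3.58.1), upper-quartile scaling, size factors from DESeq2, a minimum of 1 CPM in 3 libraries or no filter, a replicate block, each library left out, Myl7 as a covariate, and controls 1 and 3 left out. In fits with libraries left out the same 14879 genes were tested.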

Additional observations from a re-analysis of the deposited data

How the results depend on the processing

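Fhl1 kept its direction and its call in all 15 alternatives (log2 0.47 to 0.56), and the direction of each of the 7 tested members was the same in every alternative. The number of members called was 6 with DESeq2's Wald test, which added Acta1 (log2 2.52, adjusted p 6.69e-06), Actc1 (-0.15, 0.0394) and Ankrd1 (0.73, 0.00487), and 1, Fhl1, both with Myl7 as a covariate and with controls 1 and 3 left out; the cause was not tested. In those settings Xirp2 had a log2 change of 0.27 and 0.31 and Fhl2 of -0.32 and -0.32, none past the threshold. Actc1 also passed with DESeq2's size factors (log2 -0.15, adjusted p 0.05 when rounded), without a filter (-0.15, 0.0256) and with voom (-0.18, 0.0105). With 1 library left out, 3 to 4 members were called, with Acta1 at 2.21 to 2.86 and Actc1 at -0.18 to -0.11 on the log2 scale. The share of Acta1 in the sarcomeric pair differed by 0.402 to 0.691 percentage points with 1 library left out and by 0.572 from raw counts. Over all genes the calls were 1438, against 2239 without a filter, 2398 with voom, 126 with Myl7 as a covariate, 169 with controls 1 and 3 left out, and 446 to 1553 with 1 library left out (lowest without control 3; 850 without control 1 and 728 without sgRNA7 3). Controls 1 and 3 left out leaves 1 control, assumed to vary like the sgRNA7 libraries.

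The deviations of same-numbered libraries from their group means correlated at 0.02, -0.10 and -0.08. Those of differently numbered libraries correlated at -0.06 to 0.11. With 3 libraries a group, these values cannot settle whether the replicate numbers pair the libraries. Acta1 and Ankrd1 were highest in replicate 2 and lowest in replicate 3 in both groups. The replicate block lowered the SE of Ankrd1 from 0.18 to 0.07 and of Acta1 from 0.52 to 0.31, and raised it for the other tested members. With the replicate block 1077 genes passed, Ankrd1 was called (log2 0.73, adjusted p 1.46e-04) and the other 6 tested members kept their side of the threshold. Camk2d had an adjusted p of 0.0569 with controls 1 and 3 left out. The regulator list held 1 call without sgRNA7 3, control 1 or control 3, and 0 with controls 1 and 3 left out. Neither the Z-disc genes nor Ankrd23 were called in that last setting. Depth limits Ankrd2, with 7 reads in sgRNA7 and 8 in control libraries. Whether Acta1 passed depended on the test and on the libraries used, and its coefficient of variation was 48.3% over the sgRNA7 libraries.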
